A study of Mus musculus with 24 samples.

Results

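The genes described are 10 interferon-stimulated antiviral genes, Ifit1, Ifit2, Ifit3, Isg15, Rsad2, Oasl2, Oas1a, Usp18, Ifi44 and Ifi47. They were found by their symbols among the 43346 genes of the count table, each symbol matched 1 gene, and all 10 passed the filter on low counts. They were followed through cortical RNA of 24 mice, 1 library per mouse, in 4 groups of 6. The first group carried the genotype label Abca7 and had been given lipopolysaccharide (LPS, a bacterial cell-wall component that activates TLR4), and its mice were 54 to 56 days old. The second group was control mice given LPS, 54 to 56 days old, the third unstimulated mice labelled Abca7, 55 to 58 days old, and the fourth unstimulated control mice, 55 to 57 days old. The series' design text calls the Abca7 mice heterozygous and says that LPS was injected. The sources used here do not give the construction of the allele, the strain, the sex, or the dose, route and time of LPS, and no label says that control or unstimulated mice received a vehicle.

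Type I interferons bind a receptor of the IFNAR1 and IFNAR2 chains, and the kinases JAK1 and TYK2 then activate ISGF3, a transcription factor complex that holds IRF9 and binds the interferon-stimulated response element (ISRE) in the promoters of antiviral genes. The IFIT proteins bind viral RNA and limit its translation, OAS enzymes make oligoadenylates in response to double-stranded RNA, and viperin, the product of Rsad2, makes a nucleotide that terminates viral RNA chains. ISG15 is a ubiquitin-like protein that is joined to other proteins, and USP18 removes it and also dampens signalling at the interferon receptor. In the brain, neurons, glia and vascular cells can all express such genes.

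Total counts per library were 48151862 to 75741388 in the Abca7 LPS group, 52110299 to 74948653 in the control LPS group, 48149131 to 61638125 in the unstimulated Abca7 group and 50687017 to 66360911 in the unstimulated control group. The transcript of Abca7 itself, a lipid transporter, averaged 29.4 CPM (the count relative to the scaled size of its library) in Abca7 LPS libraries against 24.5 CPM in control LPS libraries, and 32.1 CPM in unstimulated Abca7 libraries against 28.6 CPM in unstimulated control libraries. Neither difference passed edgeR's quasi-likelihood test, with a log2 difference of 0.26 ± 0.07 (SE, adjusted p = 0.267) under LPS and 0.17 ± 0.07 (adjusted p = 0.606) without, and both pointed to more transcript in the labelled mice. These mice are therefore called labelled Abca7 throughout. Summed CPM of markers of cortical neurons were 3350 to 3770 in the Abca7 LPS group, 3300 to 3840 in the control LPS group, 3400 to 3770 in the unstimulated Abca7 group and 3500 to 3890 in the unstimulated control group, as the tissue label would have it. An unstimulated library labelled Abca7 (replicate 1) and an LPS library labelled Abca7 (replicate 4) stood apart from their groups in the antiviral genes, as described with the spread between mice.

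All 10 antiviral genes were higher under LPS in both genotypes. Their summed level was 274 CPM in the lowest, 515 CPM in the median and 773 CPM in the highest Abca7 LPS library, and 490, 605 and 738 CPM in control LPS libraries. Without LPS the sums were 20.5, 24.8 and 49.0 CPM in libraries labelled Abca7 and 23.0, 25.3 and 33.2 CPM in control libraries. By edgeR, 10 of 10 rose in mice labelled Abca7, where 6.65% of the 21891 genes tested rose, and 10 of 10 rose in control mice, where 9.39% did. For every one of the 10 genes, the lowest LPS library lay above the highest unstimulated library of the same genotype label, which held for 3.49% of tested genes in mice labelled Abca7 and 5.38% in control mice. The median log2 fold change of the 10 genes was 3.73 in mice labelled Abca7 and 4.06 in control mice, against a median of 0.005 over all tested genes in each comparison.

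**Figure D1:**
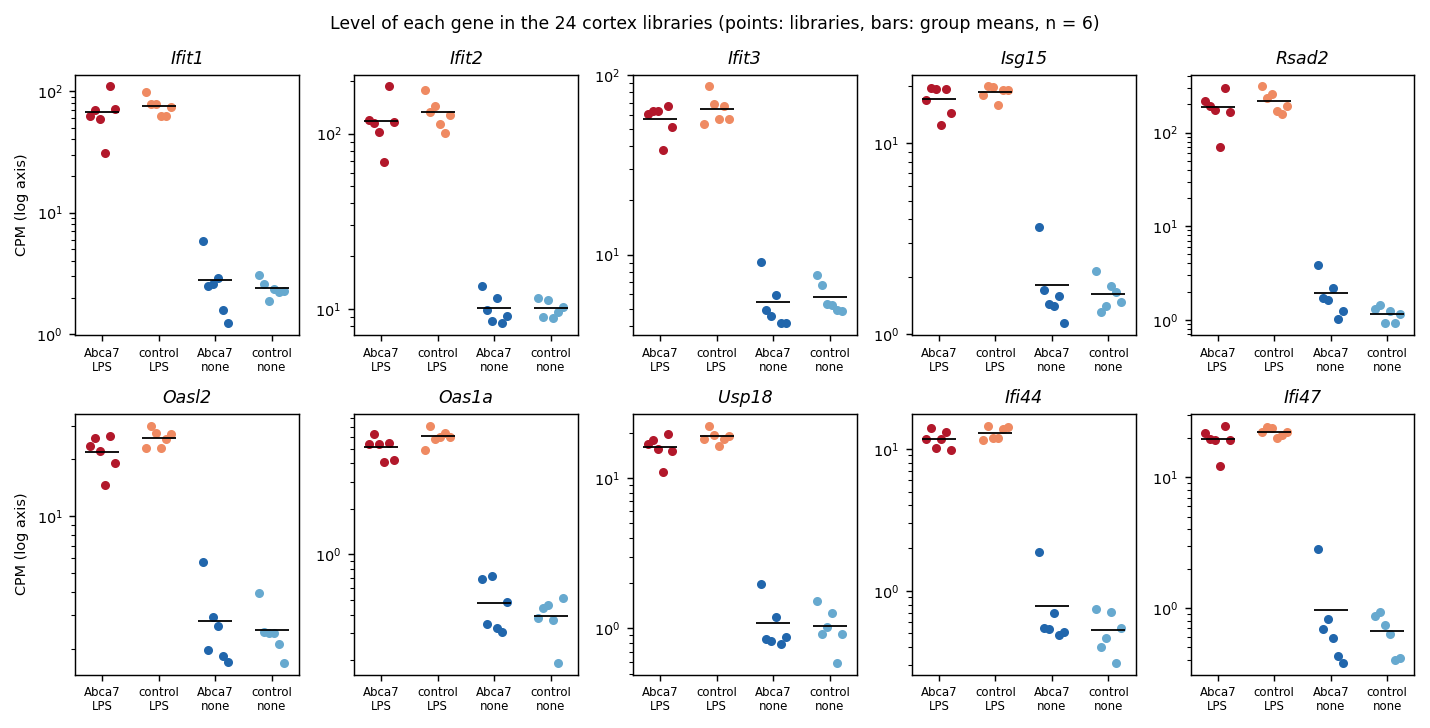
Level of each of the 10 genes in the 24 libraries, in CPM on a log axis, in the order Abca7 LPS, control LPS, Abca7 without stimulus and control without stimulus. Points are libraries in replicate order and bars are group means of 6, and in every panel the lowest LPS library lies above the highest unstimulated library of either genotype label.

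The promoters of these genes were examined because the members moved together. RefSeq promoter windows of 300 bases (250 before to 50 after the start site, build GRCm38.p6) were found for 9 of the 10 genes, in 10 windows, with Ifit2 having 2. Usp18 had no entry. The ISRE core was searched on both strands as 2 copies of GAAA with any 2 bases between them, matches were allowed to overlap, and the motif occurred in windows of 5 members, Ifit1, Ifit3, Isg15, Oas1a and Rsad2. Of 32851 promoter windows of the genome's RefSeq genes, 3.44% held it. A GAS motif (gamma-activated site), searched as TTCNNNGAA, was present in windows of 2 members, Ifit2 and Oas1a, and in 8.3% of all windows. A kappaB consensus was present in 1 member's window, that of Ifit2, and in 8.46% of all windows. The 5 windows with an ISRE match are shown in lower case, read along the strand of the gene, with the match in capitals. Ifit1 lies on the plus strand (chr19:34640639-34640938) and Ifit3 on the plus strand (chr19:34583279-34583578). Isg15 lies on the minus strand (chr4:156200769-156201068), Oas1a on the minus strand (chr5:120907476-120907775) and Rsad2 on the minus strand (chr12:26456403-26456702).
Ifit1: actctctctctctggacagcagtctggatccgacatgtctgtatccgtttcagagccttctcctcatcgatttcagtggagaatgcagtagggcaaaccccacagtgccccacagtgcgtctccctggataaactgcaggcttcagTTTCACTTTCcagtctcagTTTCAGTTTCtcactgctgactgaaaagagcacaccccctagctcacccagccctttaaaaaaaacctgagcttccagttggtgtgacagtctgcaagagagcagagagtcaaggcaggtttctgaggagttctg
Ifit3: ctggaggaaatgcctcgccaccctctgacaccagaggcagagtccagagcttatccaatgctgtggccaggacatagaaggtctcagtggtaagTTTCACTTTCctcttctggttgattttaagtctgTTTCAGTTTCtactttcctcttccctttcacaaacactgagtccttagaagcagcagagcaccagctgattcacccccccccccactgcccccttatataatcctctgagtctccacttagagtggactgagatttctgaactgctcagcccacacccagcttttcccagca
Isg15: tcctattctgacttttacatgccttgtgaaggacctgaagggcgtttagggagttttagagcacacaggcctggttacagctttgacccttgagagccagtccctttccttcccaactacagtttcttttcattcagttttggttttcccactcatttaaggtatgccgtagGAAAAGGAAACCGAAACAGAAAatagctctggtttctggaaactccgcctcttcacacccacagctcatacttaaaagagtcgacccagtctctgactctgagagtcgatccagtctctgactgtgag
Oas1a: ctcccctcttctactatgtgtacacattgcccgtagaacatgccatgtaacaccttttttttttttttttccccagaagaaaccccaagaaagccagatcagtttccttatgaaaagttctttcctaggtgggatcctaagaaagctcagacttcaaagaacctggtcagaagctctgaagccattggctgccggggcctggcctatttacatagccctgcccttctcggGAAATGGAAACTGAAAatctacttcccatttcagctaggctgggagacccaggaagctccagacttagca
Rsad2: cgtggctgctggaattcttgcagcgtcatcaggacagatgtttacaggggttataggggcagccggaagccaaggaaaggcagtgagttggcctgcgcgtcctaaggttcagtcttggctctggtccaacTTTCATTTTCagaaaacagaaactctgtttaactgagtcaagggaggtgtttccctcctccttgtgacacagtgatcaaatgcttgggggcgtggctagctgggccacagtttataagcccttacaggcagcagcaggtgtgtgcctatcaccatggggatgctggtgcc
In Ifit1 the matches began at -104 and -85 from the start site, and in Ifit3 at -156 and -122. Both genes carried the same pair of 10-base matches in the same order, TTTCACTTTC and then TTTCAGTTTC, which is the ISRE core read on the other strand. Isg15 held 3 overlapping matches, beginning at -78, -72 and -66, so that the capitals form 1 run. Oas1a held 2 overlapping matches at -20 and -14, nearest to the start site among the 5 genes, and Rsad2 held 1 match at -120. In the related lists, genes with a window that held the ISRE match numbered 5 of 5 for the immunity-related GTPases, 3 of 4 for other Ifit and Ifi44 genes, 3 of 6 for other Oas genes, 3 of 10 for other antiviral effectors and 2 of 8 for transcription factors. They numbered 0 of 4 for ISG15 conjugation, 0 of 8 for receptors and kinases, and 11 of 19 for the interferon ligands. A match describes these letters only, and binding was not measured.

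Among the genes that act on viral RNA, Rsad2 had the largest change. In mice labelled Abca7, its level was 70.0, 181 and 302 CPM in the lowest, median and highest library under LPS, against 1.02, 1.66 and 3.85 CPM without. In control mice it was 156, 214 and 311 CPM under LPS, against 0.917, 1.20 and 1.45 CPM without. The difference was 6.63 ± 0.31 on the log2 scale in mice labelled Abca7 (adjusted p = 5.61e-15) and 7.57 ± 0.33 in control mice (adjusted p = 8.79e-16), about 98.9-fold and 190-fold. Rsad2 thus ranked 14th of all tested genes by log2 fold change in mice labelled Abca7 and 20th in control mice. Its counts without LPS were 57 to 167 per library in mice labelled Abca7 and 52 to 78 in control mice, so the low side of the fold rests on few reads.

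The Ifit genes lie side by side on chromosome 19 (mm10), with Ifit2 at chr19:34550694-34576419, Ifit3 at chr19:34583531-34588731 and Ifit1 at chr19:34640871-34650009, a span of 99.3 kb. Ifit1 had the steepest rise of the 3. It stood at 30.7, 66.1 and 109 CPM (lowest, median, highest) under LPS against 1.23, 2.55 and 5.81 CPM without in mice labelled Abca7, and at 61.8, 75.7 and 98.4 CPM against 1.88, 2.3 and 3.05 CPM in control mice. Its log2 fold change was 4.64 ± 0.27 in mice labelled Abca7 (adjusted p = 3.83e-13) and 4.98 ± 0.27 in control mice (adjusted p = 7.73e-14). Ifit2, which in mice protects neurons against several neurotropic viruses, started higher and changed less.

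Ifit2 measured 68.7, 115 and 186 CPM under LPS against 8.27, 9.44 and 13.6 CPM without in mice labelled Abca7, and 101, 131 and 178 CPM against 8.82, 9.95 and 11.5 CPM in control mice. This was a log2 fold change of 3.54 ± 0.18 in mice labelled Abca7 (adjusted p = 2.61e-14) and 3.72 ± 0.18 in control mice (adjusted p = 7.25e-15). For Ifit3, whose human counterpart binds and stabilises IFIT1, the levels were 38.2, 61.4 and 67.3 CPM under LPS against 4.14, 4.74 and 9.06 CPM without in mice labelled Abca7, and 53.3, 62.0 and 86.2 CPM against 4.83, 5.24 and 7.74 CPM in control mice. Ifit3 rose by 3.40 ± 0.17 on the log2 scale in mice labelled Abca7 (adjusted p = 3.54e-14) and by 3.49 ± 0.17 in control mice (adjusted p = 1.29e-14). Of the 50-base stretches of Ifit3 transcripts, 51.2% also occur in Ifit3b, its near copy, so counts of these 2 genes cannot be fully divided between them.

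Between Ifit3 and Ifit1 lie Ifit1bl1, Ifit3b and Ifit1bl2, listed in the table under older names, and all 3 rose in both genotypes. Ifit3b had log2 fold changes of 3.0 ± 0.17 in mice labelled Abca7 and 3.13 ± 0.17 in control mice, and Ifit1bl1 had the smallest, 0.72 ± 0.12 and 0.85 ± 0.12 in the same order of genotypes. The genes that flank the cluster did not pass the test. Lipa, a lysosomal lipase, differed by -0.10 ± 0.07 in mice labelled Abca7 (adjusted p = 0.374) and by 0.14 ± 0.07 in control mice (adjusted p = 0.148). On the other side, Slc16a12, a membrane transporter, differed by -0.03 ± 0.10 (adjusted p = 0.902) and 0.12 ± 0.10 (adjusted p = 0.487). Beyond Lipa, Ch25h, which makes the antiviral oxysterol 25-hydroxycholesterol, rose by 4.49 ± 0.26 in mice labelled Abca7 and by 5.18 ± 0.26 in control mice.

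In the OAS family, Oas1a makes oligoadenylates and Oasl2 carries ubiquitin-like domains behind its OAS domain. Both lie on chromosome 5, with 5.98 Mb between them, at chr5:120896256-120907521 for Oas1a and chr5:114896936-114912234 for Oasl2. Oas1a was the least abundant of the 10 genes by CPM. In mice labelled Abca7 it measured 4.08, 5.39 and 6.28 CPM under LPS against 0.306, 0.413 and 0.718 CPM without, and in control mice 4.94, 5.99 and 7.11 CPM against 0.192, 0.412 and 0.511 CPM. It rose by 3.44 ± 0.19 on the log2 scale in mice labelled Abca7 (adjusted p = 1.11e-13) and by 3.95 ± 0.19 in control mice (adjusted p = 6.61e-15). The unstimulated side rests on 17 to 40 counts per library in mice labelled Abca7 and 13 to 32 in control mice, and 57.6% of its 50-base stretches also occur in Oas1g.

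Oasl2 had the smallest rise of the 10 genes in both genotypes. Its level was 14.7, 22.8 and 26.5 CPM under LPS against 1.71, 2.29 and 5.74 CPM without in mice labelled Abca7, and 22.9, 26.3 and 30.1 CPM against 1.69, 2.43 and 3.96 CPM in control mice. That gave log2 fold changes of 3.01 ± 0.21 (adjusted p = 2.46e-11) in mice labelled Abca7 and 3.37 ± 0.22 (adjusted p = 1.68e-12) in control mice. Of the 11 other genes listed with the Oas family, 8 could be tested, and 6 rose in each genotype. Oasl1, which in mice restrains the translation of Irf7, had the largest change, 6.45 ± 0.32 in mice labelled Abca7 and 6.24 ± 0.30 in control mice. Its unstimulated side rests on 0 to 14 counts per library in mice labelled Abca7 and 5 to 19 in control mice. Oas1g, the near copy of Oas1a, rose by 3.64 ± 0.21 and 4.54 ± 0.23 in the same order. Oas1c did not pass, at -0.05 ± 0.16 (adjusted p = 0.903) and 0.30 ± 0.15 (adjusted p = 0.197).

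The ISG15 system moved on both sides, the modifier and its protease. Isg15 measured 12.5, 18 and 19.5 CPM under LPS against 1.14, 1.51 and 3.62 CPM without in mice labelled Abca7, and 15.8, 18.9 and 19.8 CPM against 1.31, 1.57 and 2.13 CPM in control mice. It rose by 3.25 ± 0.18 on the log2 scale in mice labelled Abca7 (adjusted p = 1.34e-13) and by 3.50 ± 0.18 in control mice (adjusted p = 1.87e-14). Usp18, the protease that removes ISG15, measured 11, 16.3 and 19.5 CPM against 0.791, 0.866 and 1.98 CPM in mice labelled Abca7, and 16.3, 18.7 and 22.3 CPM against 0.592, 0.978 and 1.52 CPM in control mice, each time with LPS before no stimulus. Its log2 fold changes were 3.92 ± 0.18 (adjusted p = 6.97e-15) and 4.18 ± 0.18 (adjusted p = 1.16e-15). An exon of Usp18 overlaps Gm44148 on the opposite strand, and the sources used here do not say whether the counting used strand. The enzymes that attach ISG15 changed less: Uba7 (the activating enzyme), Ube2l6 (the conjugating enzyme), Herc6 and Trim25 (ligases) all rose, 4 of 4 in each genotype. Their median log2 fold change was 1.38 in mice labelled Abca7 and 1.4 in control mice, from 0.89 ± 0.07 and 1.01 ± 0.07 for Herc6 to 1.51 ± 0.14 and 1.81 ± 0.14 for Trim25.

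Ifi44, an interferon-induced protein whose molecular activity is less well defined, measured 9.85, 11.7 and 14.1 CPM under LPS against 0.485, 0.540 and 1.89 CPM without in mice labelled Abca7, and 11.6, 12.9 and 14.6 CPM against 0.311, 0.502 and 0.744 CPM in control mice. It rose by 3.98 ± 0.22 (adjusted p = 1.34e-13) in mice labelled Abca7 and by 4.62 ± 0.23 (adjusted p = 1.03e-14) in control mice. Its relative Ifi44l could not be tested, with 4 counts in all, every one in the same Abca7 LPS library. Ifi47 belongs to another family, the immunity-related GTPases, which act at the vacuoles of intracellular pathogens and are known above all as targets of interferon gamma.

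Ifi47 measured 12.2, 19.6 and 24.9 CPM under LPS against 0.381, 0.637 and 2.84 CPM without in mice labelled Abca7, and 20, 22.2 and 24.5 CPM against 0.399, 0.686 and 0.925 CPM in control mice. Its log2 fold changes were 4.44 ± 0.28 (adjusted p = 1.92e-12) in mice labelled Abca7 and 5.10 ± 0.29 (adjusted p = 1.53e-13) in control mice, the second largest of the 10 in control mice and the third in mice labelled Abca7. Without the unstimulated Abca7 library of replicate 1, the value in mice labelled Abca7 was 5.07, a fold 1.55 times that with it. It was also 5.07 with age as a factor. In that fit replicate 1, the only library of 58 days, has its own age term and is in effect left out. Without both libraries that stood apart the value was 5.17 (1.66 times). Exons of Ifi47 overlap Olfr56 on the same strand. All 6 of the other immunity-related GTPases rose in each genotype, with medians of 3.08 in mice labelled Abca7 and 3.97 in control mice. Iigp1 changed most (5.07 ± 0.32 in mice labelled Abca7 and 6.02 ± 0.34 in control mice) and Igtp least (2.57 ± 0.20 and 2.99 ± 0.21). Without replicate 1 of the unstimulated Abca7 group, the median in mice labelled Abca7 was 3.93 and the log2 fold change of Iigp1 5.77. The near copies Tgtp1 and Tgtp2 moved more, to 4.80 without that library against 3.77 with it, and to 5.13 against 3.56.

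**Figure D2:**
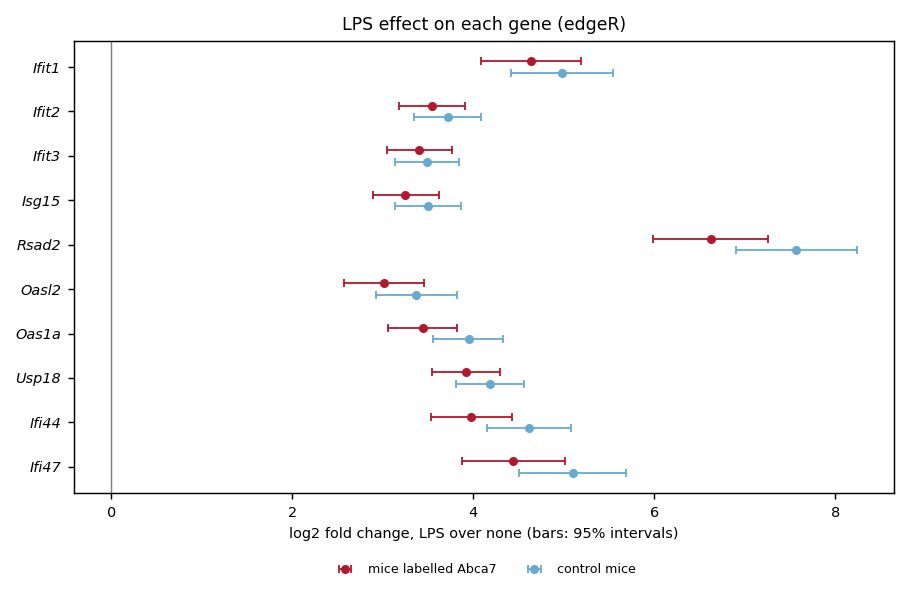
Log2 fold change of each of the 10 genes for LPS over no stimulus by edgeR, in mice labelled Abca7 (dark red, upper) and control mice (blue, lower), with 95% intervals as bars. The lowest bound is 2.57 (Oasl2), and Rsad2 stands to the right of the others at 6.63 and 7.57.

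Per kilobase of exon, the order of the genes was not the same with and without LPS. Under LPS, Rsad2 was highest, with a mean of 43.0 ± 17.4 CPM per kb (SD, n = 6) in mice labelled Abca7 and 50.7 ± 13.5 in control mice. Without LPS it ranked 7th, at 0.449 ± 0.236 CPM per kb in mice labelled Abca7, and 8th, at 0.269 ± 0.049 in control mice. Ifit3, Ifit2, Ifit1 and Isg15 followed Rsad2 in that order under LPS, at 32.7, 30.0, 25.2 and 22.4 CPM per kb in mice labelled Abca7 and 37.2, 33.8, 28.4 and 24.4 in control mice, and the ranges of each with the next overlapped. A gap came after Isg15: Usp18, next in order, averaged 9.05 CPM per kb in mice labelled Abca7 and 10.7 in control mice, and its range did not reach that of Isg15 in either. Oasl2, Oas1a and Ifi44 were lowest under LPS, at 5.66, 2.72 and 1.93 CPM per kb in mice labelled Abca7 and 6.70, 3.20 and 2.13 in control mice. Without LPS, Ifit3, Ifit2 and Isg15 led, at 3.13, 2.58 and 2.40 CPM per kb in mice labelled Abca7 and 3.32, 2.57 and 2.15 in control mice, and Oas1a and Ifi44 were again last. Most neighbours in the unstimulated order had overlapping ranges, and in control mice Ifi47 exceeded Rsad2 in 3 of 6 libraries only. Exon lengths are those of the deposited table. The places of Ifit3 and Oas1a in these orders carry a further limit. They share 51.2% and 57.6% of their 50-base stretches with other genes, and the treatment of multiply mapped reads is not known.

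Other antiviral effectors rose as a group, with 15 of 15 past the test in each genotype and medians of 2.03 in mice labelled Abca7 and 2.33 in control mice. The largest change was that of Mx1, a dynamin-like GTPase that traps viral nucleocapsids, at 5.55 ± 0.32 in mice labelled Abca7 and 5.56 ± 0.31 in control mice. Xaf1, a gene linked to cell death, had the smallest change in control mice, 1.55 ± 0.13, with 1.48 ± 0.13 in mice labelled Abca7, where Bst2, which tethers budding virus to the cell, was smallest at 1.46 ± 0.19. The interferons themselves were almost without reads. None of the 18 ligand genes used had enough counts to be tested. Ifnb1 had 0 counts summed over the 6 Abca7 LPS libraries, 4 over the control LPS libraries, 1 over the unstimulated Abca7 libraries and 0 over the unstimulated control libraries, and Ifng had 2, 4, 0 and 0 in the same order of groups. A change in these ligands was therefore not detectable at this depth.

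Receptors and kinases of the pathway differed far less. In mice labelled Abca7, 0 of 9 rose and 1 fell by edgeR, with 3 of 9 at an unadjusted p under 0.05, where 5.18% of tested genes fell and 23.5% had such a p. In control mice 3 rose and 2 fell, where 7.92% of tested genes fell. The median log2 fold changes were 0.09 and 0.08. Ifnar1 differed by -0.02 ± 0.03 in mice labelled Abca7 and 0.00 ± 0.03 in control mice (adjusted p = 0.841 and 0.973), while Ifnar2 differed by 0.09 ± 0.06 in mice labelled Abca7 and rose by 0.29 ± 0.06 in control mice. The others past the test in control mice were Ifnlr1, a receptor chain for interferon lambda (1.45 ± 0.33), Jak1 (0.15 ± 0.04), Il10rb (-0.34 ± 0.09) and Tyk2 (-0.21 ± 0.06). The gene that fell in mice labelled Abca7 was Il10rb (-0.27 ± 0.09), and its exons, like those of Ifnar2, overlap Gm21970 on the same strand. Ifngr1, Ifngr2 and Jak2 passed in neither genotype. With the Ttr level as a covariate, 1 gene of this list rose in control mice.

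Of 9 transcription factors, 6 rose in each genotype, with medians of 0.45 in mice labelled Abca7 and 0.78 in control mice. Irf7, which amplifies interferon production, changed most, at 3.56 ± 0.17 in mice labelled Abca7 and 4.10 ± 0.17 in control mice. Stat2 and Irf9, which belong to ISGF3, rose less: Stat2 by 0.71 ± 0.07 and 0.84 ± 0.07, and Irf9 by 0.45 ± 0.10 and 0.78 ± 0.10, in the same order. Irf3, the factor that TLR4 and RNA sensors activate by phosphorylation, differed by -0.11 ± 0.07 (adjusted p = 0.363) in mice labelled Abca7 and -0.05 ± 0.07 (adjusted p = 0.703) in control mice. Irf5, at 0.09 ± 0.06 and 0.12 ± 0.06, and Irf8, at 0.27 ± 0.13 and 0.31 ± 0.13, also missed the threshold in both.

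**Figure D3:**
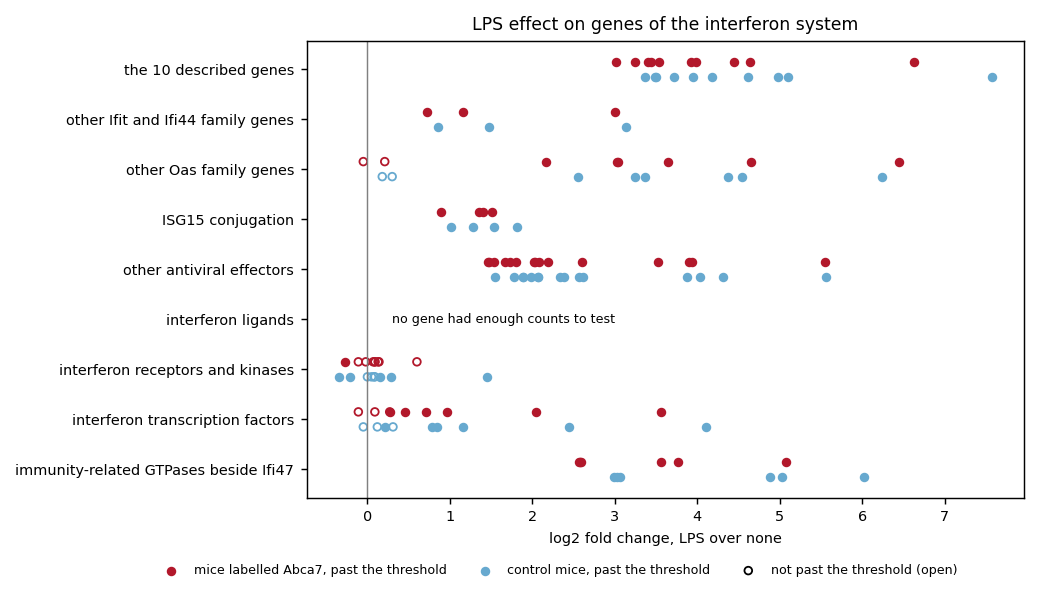
Log2 fold change for LPS over no stimulus of every tested gene of the related lists, in mice labelled Abca7 (dark red, upper row of each list) and control mice (blue, lower row), with open circles for genes not past the adjusted threshold of 0.05. The 10 described genes, the other antiviral effectors and the immunity-related GTPases lie to the right of 0, and receptors and kinases cluster around it.

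The genes outside the 10 whose log2 CPM over the 24 libraries, centred on its own mean, was most like the mean of the 10 centred genes were Parp14, AW112010, Cd274, Gbp9 and Irf7. Their root mean square differences were 0.112, 0.239, 0.272, 0.273 and 0.278 in log2 units over 24 libraries, against a median of 2.15 over 15051 genes whose log2 CPM averaged 1 or more. Parp14, an ADP-ribosyltransferase, rose by 3.94 ± 0.16 in mice labelled Abca7 and by 4.31 ± 0.16 in control mice. Cd274 encodes the checkpoint ligand PD-L1 and rose by 4.32 ± 0.27 and 4.86 ± 0.27 in the same order of genotypes. Within the 10, Usp18 was nearest to the common profile, at 0.18, and Rsad2 farthest, at 1.43.

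Markers of cell types moved with LPS too. Of 6 microglial markers, 6 fell in each genotype, and their summed level was 162 to 201 CPM in Abca7 LPS libraries and 164 to 182 CPM in control LPS libraries, against 240 to 259 CPM in unstimulated Abca7 libraries and 248 to 255 CPM in unstimulated control libraries. In such bulk tissue, fewer cells of a type and less RNA per cell cannot be told apart. Of 4 endothelial markers, 3 fell and 1 rose in each genotype, with medians of -0.42 in mice labelled Abca7 and -0.51 in control mice. Of 5 astrocyte markers, 2 rose in mice labelled Abca7 and 4 in control mice, with medians of 0.18 and 0.25. Of 5 monocyte markers, 2 rose in mice labelled Abca7 and 3 in control mice, with sums of 3.74 to 6.28 CPM and 3.65 to 5.18 CPM under LPS, against 3.22 to 4.22 CPM and 2.67 to 4.05 CPM without, mice labelled Abca7 first in each pair. Of 7 neutrophil markers, 2 could be tested and both rose in each genotype, and the sums were 0.687 to 1.59 CPM in Abca7 LPS libraries, 1.04 to 2.94 CPM in control LPS libraries, 0.279 to 0.803 CPM in unstimulated Abca7 libraries and 0.281 to 0.675 CPM in unstimulated control libraries. The defining neutrophil genes Ly6g and Elane had 3 and 0 counts in all 24 libraries together. None of 7 lymphocyte and NK-cell markers had enough counts, and their sum reached 0.34 CPM at most. The sums of 6 choroid plexus markers were 36.8 to 431 CPM in the Abca7 LPS group, 190 to 546 CPM in the control LPS group, 61.2 to 498 CPM in the unstimulated Abca7 group and 14.6 to 299 CPM in the unstimulated control group. Ttr, the main product of the choroid plexus, differed by -0.34 ± 0.70 with LPS in mice labelled Abca7 (adjusted p = 0.832), where 0 of the 6 markers rose, and rose by 2.42 ± 0.74 in control mice (adjusted p = 0.023), where 5 of the 6 rose. With the level of Ttr as a covariate, 10 of 10 antiviral genes rose in each genotype. Ttr itself rose with LPS in control mice, so this fit cannot separate a part of the choroid plexus from LPS. The part of any cell type in these changes, the choroid plexus included, was not tested.

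The spread between mice was not the same for all genes. Under LPS, the coefficient of variation of Rsad2 was 40.5% in mice labelled Abca7 and 26.7% in control mice, and that of Ifi44 was 14.0% and 10.5%. Among LPS libraries labelled Abca7, replicate 4 (54 days old) was lowest for 9 of the 10 genes. Relative to the median of the other 5, it was lower by a median of 0.69 in log2 CPM (difference -0.69), and the differences ran from -1.44 for Rsad2 and -1.18 for Ifit1 to -0.40 for Oas1a and 0.01 for Ifi44. Its neutrophil markers were the lowest of its group at 0.687 CPM, and its monocyte markers and microglial markers the highest, at 6.28 and 201 CPM. Its neuronal and endothelial markers were also the lowest, at 3350 and 88.3 CPM, and its oligodendrocyte markers stood at 3910 CPM, as in replicate 3. Whether these go with its antiviral genes was not tested.

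Among unstimulated libraries labelled Abca7, replicate 1 was highest for 9 of the 10 genes. It came from the 1 mouse that was 58 days old, so that in this group its age and its level cannot be told apart. It exceeded the median of the other 5 by a median of 1.22 in log2 CPM, from 0.58 for Ifit2 to 1.75 for Ifi44 and 2.22 for Ifi47, while the median difference over all tested genes was 0.0. Its choroid plexus and oligodendrocyte markers were the lowest of its group, at 61.2 and 2790 CPM. Its monocyte, astrocyte and endothelial markers were the highest, at 4.22, 3750 and 117 CPM. Its total count, 48149131, was the smallest of any library. Whether these go with its antiviral genes was not tested.

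Genes also differed in which LPS library was high. In control LPS replicate 1, Rsad2, Ifit2 and Ifit1 lay 0.70, 0.48 and 0.42 above the median of the other 5, and in the same library Ifit3, Oas1a and Ifi44 lay at -0.33, -0.28 and -0.27. In control LPS replicate 5, Rsad2, Ifit2 and Ifit1 lay at -0.59, -0.41 and -0.33, and Ifit3 and Ifi44 at 0.24 and 0.22. In Abca7 LPS replicate 5, Rsad2, Ifit1 and Ifit2 were again the highest above the others, at 0.80, 0.80 and 0.69, against 0.16 for Ifit3 and 0.04 for Oas1a. Not every LPS library showed this split of Rsad2, Ifit1 and Ifit2 from the rest. In Abca7 LPS replicate 6, Ifit1 lay at 0.19 and Rsad2 at -0.20. In control LPS replicate 2, Ifit3 lay at 0.60, above Rsad2 (0.29), Ifit1 (0.09) and Ifit2 (0.06). In control LPS replicate 4, Rsad2, Ifit1, Ifit2 and Ifit3 were low together, at -0.48, -0.32, -0.23 and -0.24. The split was seen in the values of the libraries named first and was not tested.

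**Figure D4:**
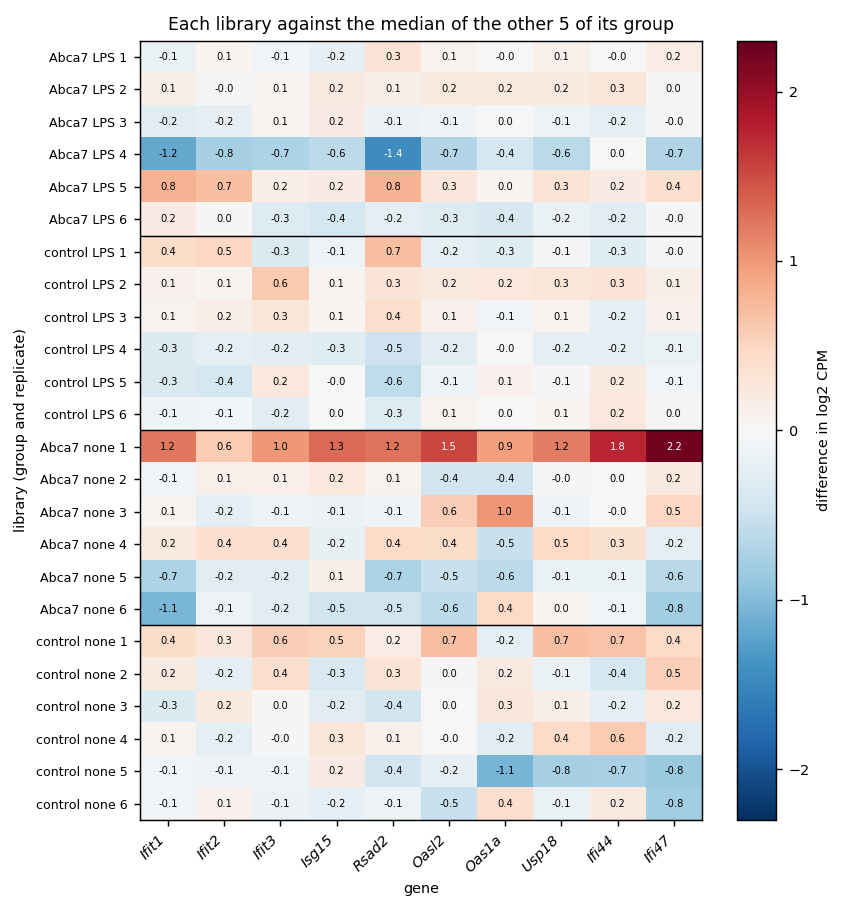
Difference in log2 CPM of each library (rows, by group and replicate) from the median of the other 5 libraries of its group, for each of the 10 genes (columns), with red above and blue below. Abca7 LPS replicate 4 is blue in 9 columns, Abca7 without stimulus replicate 1 is red in all, and in control LPS replicates 1 and 5 the columns of Ifit1, Ifit2 and Rsad2 differ in colour from those of Ifit3 and Ifi44.

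Between the genotype labels, no antiviral gene passed the test. Under LPS, 0 of 10 were called by edgeR and 0 by DESeq2, and 0 had an unadjusted p under 0.05, where 0% of tested genes were called and 7.99% had such a p. All 10 log2 differences, mice labelled Abca7 over control mice, were below 0, from -0.24 for Rsad2, Oasl2 and Usp18 to -0.12 for Isg15, with a median of -0.19 against -0.003 over all tested genes. The 10 genes were measured in the same libraries and varied together, so their common sign is not a set of independent observations. The interval of the difference was -0.68 to 0.21 for Rsad2, -0.60 to 0.26 for Ifit1 and -0.43 to 0.18 for Isg15. With 1 library left out, the difference itself ran from -0.43 to -0.07 for Rsad2, from -0.36 to -0.02 for Ifit1 and from -0.17 to -0.05 for Isg15. For every gene the 2 groups overlapped, and groups without overlap occurred for 0.201% of tested genes in the higher direction and 0.224% in the lower. At 55 days (2 libraries labelled Abca7 against 2 control), 2 of 10 differences in mean log2 CPM were above 0 (median -0.12). At 56 days (2 against 3), 2 of 10 were, with a median of -0.07. At 54 days (2 against 1), the age of Abca7 LPS replicate 4, all 10 were below 0, with a median of -0.58.

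Without LPS, 0 of 10 genes were called by edgeR and 0 by DESeq2, and 0 had an unadjusted p under 0.05, where 0.032% of tested genes were called and 6.51% had such a p. The log2 differences were above 0 for 9 of 10, from -0.10 for Ifit3 to 0.70 for Rsad2. The groups overlapped for all 10, and did not for 0.142% of tested genes in the higher direction and 0.119% in the lower. Within an age, the differences were above 0 for 8 of 10 genes at 55 days (3 libraries labelled Abca7 against 2 control, median 0.18). At 56 days (1 against 3) it was 5 of 10, with a median of 0.0. At 57 days (1 against 1) it was 0 of 10, with a median of -0.36. Ttr averaged 316 CPM in the unstimulated libraries labelled Abca7 and 53.1 CPM in the unstimulated control libraries (log2 difference 2.58 ± 0.75, unadjusted p = 0.00193, edgeR adjusted p = 0.399). With the Ttr level as a covariate, 0 of 10 antiviral genes passed. For Rsad2 the means were 1.94 ± 1.02 CPM in libraries labelled Abca7 and 1.16 ± 0.212 CPM in control libraries (SD, n = 6 each), and the interval of the log2 difference was -0.16 to 1.56 (edgeR adjusted p = 0.862). With both libraries that stood apart left out, a setting chosen after seeing the data, the sign turned for Ifit1 (-0.14), Ifit2 (-0.09), Isg15 (-0.16), Oasl2 (-0.18), Usp18 (-0.20) and Ifi47 (-0.16). Of these libraries, only the unstimulated Abca7 replicate 1 belongs to either group compared here. Leaving out that library alone, a planned setting, turned the same signs. The values were then -0.15 for Ifit1, -0.09 for Ifit2, -0.17 for Isg15, -0.19 for Oasl2, -0.20 for Usp18 and -0.16 for Ifi47.

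The interaction asks whether the LPS effect differed between mice labelled Abca7 and control mice. By edgeR, 0 of 10 genes passed and by DESeq2 0, with 0 of 10 at an unadjusted p under 0.05, where 0% of tested genes were called and 3.4% had such a p. The differences of the LPS effects, mice labelled Abca7 minus control mice, were all below 0, from -0.94 for Rsad2 (interval -1.91 to 0.03, unadjusted p = 0.0574 and adjusted p = 1 by edgeR) and -0.66 for Ifi47 (interval -1.53 to 0.22) to -0.09 for Ifit3 (interval -0.57 to 0.40). In mice labelled Abca7, replicate 4 lay low on the LPS side of this difference and replicate 1 high on the unstimulated side. With both left out, the difference was above 0 for 7 genes, at 0.13 for Ifit1, 0.03 for Ifit2, 0.19 for Ifit3, 0.11 for Isg15, 0.04 for Oasl2, 0.05 for Usp18 and 0.08 for Ifi47. Intervals of this width, such as -1.11 to 0.44 for Ifit1, do not show that the responses were equal or that they were unequal.

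**Figure D5:**
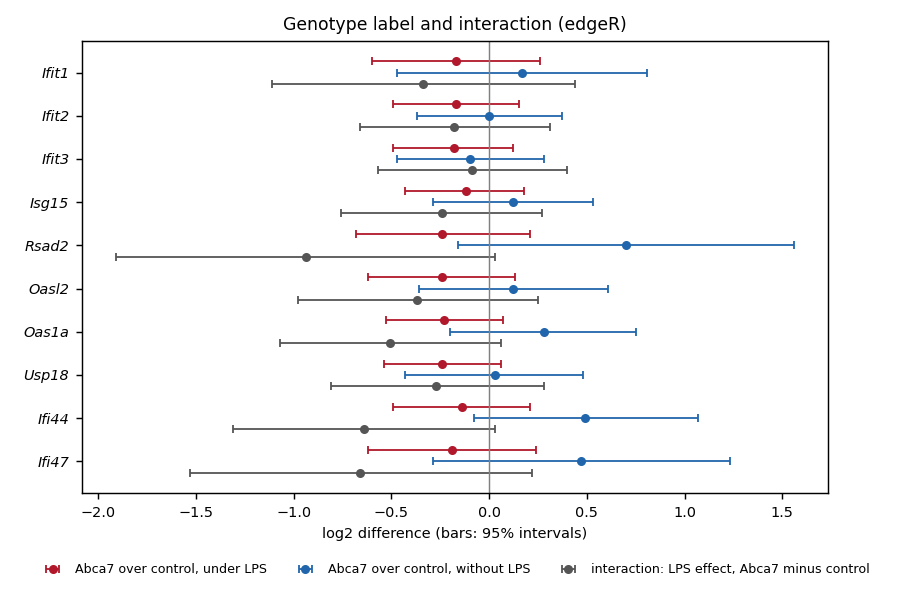
Log2 differences by edgeR for each of the 10 genes, with 95% intervals as bars: mice labelled Abca7 over control mice under LPS (dark red, upper), the same without LPS (blue, middle) and the interaction (grey, lower). Every interval crosses 0, and that of Rsad2 is widest without LPS (-0.16 to 1.56) and in the interaction (-1.91 to 0.03).

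The ages of the groups overlapped at 55 and 56 days, which allowed the LPS effect to be read within an age. In mice labelled Abca7, the difference in mean log2 CPM was above 0 for 10 of 10 genes at both ages. It was 3.43 to 7.03 at 55 days (2 LPS libraries against 3 unstimulated) and 2.96 to 6.94 at 56 days (2 against 1). In control mice it was above 0 for 10 of 10 as well. The range there was 3.48 to 7.85 at 55 days (2 against 2) and 3.16 to 7.21 at 56 days (3 against 3).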

How the data were processed

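The authors deposited raw read counts per gene for 43346 genes and 24 mouse cortex libraries, with no normalization. Reads were mapped to mm10 with STAR 2.5.2b per the submitters' processing notes, and counted with MAP-RSeq 2.1.1 per the series' design text. The sources used here do not give the annotation release, strand setting or treatment of multiply mapped reads. Coordinates are those of the table.

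Genes were kept with edgeR's filterByExpr by group (21891 genes, which held 99.96% or more of every library) and scaled with TMM factors (0.901 to 1.07). All libraries entered 1 quasi-likelihood fit in edgeR 4.0.16 (R 4.3.3) with 1 coefficient per group, and 5 contrasts were tested two-sided with Benjamini-Hochberg adjustment over all tested genes and a threshold of 0.05. Errors of log2 fold changes are SE, and intervals are 95%. CPM carries the TMM factors; log2 CPM has a prior count of 2. Each title carries its own animal number, so the 6 libraries of a group were taken as 6 mice. Replicate numbers only name libraries. Shared 50-base stretches and overlaps were computed on GENCODE M21, which holds 97.96% of the table's identifiers.

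The members, lists and tests were chosen with earlier results of these data known. Named besides the members were the genes of each list with the largest and smallest log2 fold change for LPS in control mice, up to 5 not past the test, the 5 genes most like the members, Abca7 and Ttr. Other list genes, Ch25h and the genes flanking the Ifit cluster were named after their values were seen. Ifna13 occurs in 2 rows, so its counts were not used, and it enters only the promoter search. Single values of some list genes are not reported here. Alternatives were DESeq2 1.42.0, its size factors, no filter, 2 groups alone, age or Ttr as terms, and libraries left out. The procedure was tested on simulated counts.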

Additional observations from a re-analysis of the deposited data

Results flagged for a closer look

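The 40 sets of 6 log2 CPM values (10 genes in 4 groups) were examined for a library standing apart. In 4 sets, its gap to its nearest neighbour was a larger share of the group's range than Dixon's 95% critical value. Chance alone gives about 1 such set in 20. The sets share libraries and their genes vary together, so the 4 are not independent. The share was 0.743 for Ifi44 and 0.654 for Isg15, each for the highest unstimulated library labelled Abca7, which is replicate 1 in both. It was 0.649 for Ifi47, for the lowest LPS library labelled Abca7, which is replicate 4. It was 0.659 for Oas1a, for the lowest unstimulated control library, which is replicate 5 and holds 13 counts of that gene.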

How the results depend on the processing

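Under 31 alternatives, 24 of which left out 1 library, all 10 antiviral genes rose with LPS in both genotypes and none passed for genotype or interaction. Over all tested genes, the count for LPS in control mice was 1626 with the Ttr level as a covariate, against 3790. For genotype without LPS it was 31 by DESeq2, 3 with the 2 groups alone, 49 with age as a factor, 3 with Ttr, 22 with both libraries that stood apart left out and 2 to 38 with 1 library left out, against 7. For genotype under LPS it was 2 by DESeq2, 2 with age and 0 to 1 with 1 library left out, against 0, and for the interaction 0 to 7 with 1 left out, against 0. Of the receptors and kinases, 1 rose in control mice with Ttr, and 1 rose in mice labelled Abca7 with age and 0 to 1 with 1 library left out.

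Signs turned only for differences that missed the threshold. Age as a factor in effect also leaves out the unstimulated Abca7 replicate 1, the only library of 58 days. For genotype without LPS, with age as a factor, the values were -0.22 for Ifit1, -0.17 for Ifit2, -0.16 for Isg15, -0.12 for Oasl2, -0.18 for Usp18 and -0.13 for Ifi47. With Ttr, they were -0.02 for Oasl2 and -0.09 for Usp18. With both libraries out, they were -0.14 for Ifit1, -0.09 for Ifit2, -0.16 for Isg15, -0.18 for Oasl2, -0.20 for Usp18 and -0.16 for Ifi47. With 1 library left out, the ranges were -0.15 to 0.33 for Ifit1, -0.09 to 0.05 for Ifit2, -0.28 to 0.00 for Ifit3, -0.17 to 0.23 for Isg15, -0.19 to 0.30 for Oasl2, -0.20 to 0.17 for Usp18 and -0.16 to 0.64 for Ifi47. Except for Ifit3, the lowest value of each came without the unstimulated Abca7 replicate 1. In the interaction, age gave 0.05 for Ifit1, 0.07 for Ifit3 and 0.04 for Isg15, and Ttr gave 0.06 for Ifit3. Both libraries out gave 0.13 for Ifit1, 0.03 for Ifit2, 0.19 for Ifit3, 0.11 for Isg15, 0.04 for Oasl2, 0.05 for Usp18 and 0.08 for Ifi47. With 1 out, Ifit3 ran from -0.19 to 0.10 and Isg15 from -0.35 to 0.04. The causes were not tested. The fit of 2 groups alone gives no interaction. No paired analysis was possible because the replicate numbers follow the order of the series and link no animals. Depth limits Oas1a, Ifi44, Ifi47, Usp18, Isg15 and Rsad2 most without LPS, which had 13 to 167 counts per library, and the interferon ligands, which could not be tested.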
